A study of Rattus norvegicus with 12 samples.

Results

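The genes described here are the rat receptors of the vomeronasal and bitter taste families, taken as every row of the count table whose name starts with Vom1r, Vom2r or Tas2r followed by a digit or letter. They make up 176 of the 30560 genes in the table, with 77 vomeronasal type 1 receptors (Vom1r), 68 vomeronasal type 2 receptors (Vom2r) and 31 bitter taste receptors (Tas2r). The 176 rows carry 166 names, since 10 names occur on 2 rows with different Ensembl identifiers. The rule uses names only.

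Total RNA was sequenced from isolated mitochondria and from whole muscle of the same 6 rats, giving 6 libraries of each kind. All animals were wild-type Wistar Kyoto males aged 9 weeks, and the tissue was the red inner portion of gastrocnemius, a muscle of the calf. The mitochondria were immunoprecipitated from fresh tissue, and then received proteinase K and RNase A, which degrade accessible protein and RNA, while the muscle was snap frozen and had neither enzyme. The comparison asks which transcripts are measured in the mitochondrial preparation relative to its tissue of origin. After a DNase I digest, ribosomal-depleted libraries were prepared using 10 ng of mitochondrial RNA or 50 ng of muscle RNA.

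Vomeronasal receptors are G protein-coupled receptors of sensory neurons in the vomeronasal organ of the nose, where they detect pheromones and other chemical cues. The type 1 receptors work with the G protein subunit Gnai2, have a short extracellular end and are encoded by an undivided coding exon. The type 2 receptors work with Gnao1, carry a long extracellular domain and are encoded over several exons, and the neurons of both types signal through the channel Trpc2. Bitter taste receptors, also with an undivided coding exon, sit in type II taste cells of the tongue and in tuft cells of other epithelia, where they act through gustducin (Gnat3), Plcb2, Itpr3 and Trpm5. Skeletal muscle is not known as a main site of any of these families. The exon structure given here is background on the families and was not read from an annotation.

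The promoters of 6 receptors are shown, chosen for the reasons given next. None was matched for Vom2r44, which had the most muscle counts of all receptors. Vom1r24, Vom2r3 and Tas2r140 had the largest fold change of their families. Tas2r137 and Tas2r126 had the most muscle counts among the bitter taste receptors, and Vom2r1 is the closest relative of Vom2r3 over this window. Each sequence runs from 250 bases before to 50 bases after the annotated start, 5′ to 3′ on the gene's strand. It comes from RefSeq on GRCr8, a build other than that of the counts (mRatBN7.2). In all 6 lines the last 50 bases begin with atg, the letters of a start codon. The annotated start of these genes may thus be that of the coding sequence and not of transcription. The word promoter is used here as a name for this window only. In the lines of Vom1r24 (chr1:73189090-73189389, minus strand), Tas2r140 (chr4:168056135-168056434, minus strand) and Tas2r126 (chr4:72300198-72300497, plus strand) the capitals mark the motifs described after them. The lines of Vom2r3 (chr1:2759374-2759673, plus strand) and Tas2r137 (chr4:70250841-70251140, plus strand) held neither motif and have no capitals. In the line of Vom2r1 (chr1:164224-164523, plus strand) the capitals mark the 3 bases that differ from Vom2r3.
Vom1r24: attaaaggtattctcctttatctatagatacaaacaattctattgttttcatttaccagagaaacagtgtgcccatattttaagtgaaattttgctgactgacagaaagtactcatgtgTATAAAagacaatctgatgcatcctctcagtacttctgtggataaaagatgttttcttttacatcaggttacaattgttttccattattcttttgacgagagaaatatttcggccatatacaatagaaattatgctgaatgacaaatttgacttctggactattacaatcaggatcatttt
Vom2r3: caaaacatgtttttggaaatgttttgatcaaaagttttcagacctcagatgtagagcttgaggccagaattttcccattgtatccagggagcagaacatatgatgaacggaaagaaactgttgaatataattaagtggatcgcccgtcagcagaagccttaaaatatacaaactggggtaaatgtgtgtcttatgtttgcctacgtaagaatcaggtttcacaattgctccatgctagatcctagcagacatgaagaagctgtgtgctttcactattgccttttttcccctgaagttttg
Vom2r1: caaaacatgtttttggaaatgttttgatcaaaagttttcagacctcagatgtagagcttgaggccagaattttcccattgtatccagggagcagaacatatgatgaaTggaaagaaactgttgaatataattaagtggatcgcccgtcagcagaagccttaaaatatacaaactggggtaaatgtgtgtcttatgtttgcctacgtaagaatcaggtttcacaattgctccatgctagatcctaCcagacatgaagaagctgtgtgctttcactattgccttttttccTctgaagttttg
Tas2r140: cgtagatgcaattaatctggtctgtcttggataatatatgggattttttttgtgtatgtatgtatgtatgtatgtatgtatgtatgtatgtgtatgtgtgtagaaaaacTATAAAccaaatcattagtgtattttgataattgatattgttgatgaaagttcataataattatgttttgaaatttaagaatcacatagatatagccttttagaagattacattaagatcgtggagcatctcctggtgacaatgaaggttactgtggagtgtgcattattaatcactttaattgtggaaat
Tas2r137: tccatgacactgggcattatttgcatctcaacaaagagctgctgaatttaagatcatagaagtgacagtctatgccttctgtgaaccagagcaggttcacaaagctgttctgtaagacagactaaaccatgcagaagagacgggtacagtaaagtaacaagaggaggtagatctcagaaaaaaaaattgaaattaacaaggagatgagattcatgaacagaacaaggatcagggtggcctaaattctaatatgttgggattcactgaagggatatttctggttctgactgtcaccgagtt
Tas2r126: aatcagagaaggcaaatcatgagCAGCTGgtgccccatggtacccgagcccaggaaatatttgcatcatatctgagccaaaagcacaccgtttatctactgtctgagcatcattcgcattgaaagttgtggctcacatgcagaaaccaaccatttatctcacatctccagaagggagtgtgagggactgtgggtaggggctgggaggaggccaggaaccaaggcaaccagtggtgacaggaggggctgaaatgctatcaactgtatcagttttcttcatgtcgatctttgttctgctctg

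A promoter could be matched by name for 151 receptors. The letters TATAAA, the core of the TATA box, were searched on both strands of each window of 300 bases. They were present in 35 of 65 Vom1r promoters (53.8%), 18 of 56 Vom2r promoters (32.1%) and 10 of 30 Tas2r promoters (33.3%), and in 14.2% of all 33469 rat promoters in the table. The letters CAGCTG, an E-box form that muscle regulatory factors are known to bind, were present in 3 of 65 Vom1r promoters (4.62%), 12 of 56 Vom2r promoters (21.4%) and 2 of 30 Tas2r promoters (6.67%), and in 15.1% of all promoters. The reverse complement of TATAAA is TTTATA, and the forms on both strands can overlap, so promoters with at least 1 match were counted and not matches. A TATAAA match and a CAGCTG match cannot overlap, and a match describes letters in a window only. A window set on a start codon, as may hold for the lines shown, lies elsewhere than one set on a transcription start. The receptors and all promoters may therefore be compared over unlike regions, and the percentages are not adjusted for base composition. They do not show whether the receptors differ in TATA boxes or E-boxes. Compared without gaps, the Vom2r3 promoter was 99% identical to that of Vom2r1, and the Vom2r6 promoter was 96.3% identical to that of Vom2r3. A receptor partner with at least 90% identity was found for 4 of 65 Vom1r, 5 of 56 Vom2r and 0 of 30 Tas2r promoters. Identity over this window does not show which transcripts share reads, and identity of the transcripts was not examined. Reads from near-identical copies may be split between rows or dropped. The sources used here do not state how reads with several matches were counted, so the value of a single member of a close group is uncertain.

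All 3 families were measured in every mitochondrial library and were close to absent from whole muscle. The summed receptor level was 3186 ± 121 CPM of nuclear counts in isolated mitochondria and 0.850 ± 0.539 CPM in whole muscle (SD, n = 6 each). CPM, a count scaled for library depth, was computed here relative to the counts of all nuclear genes in the library. The receptors thus took 0.319% ± 0.0121 of nuclear counts in mitochondria. In raw counts this was 15942 receptor counts over the 6 mitochondrial libraries and 99 over the 6 muscle libraries, although the muscle libraries were much deeper.

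Library depth sets what can be read from these counts. The mitochondrial libraries held 720111 to 1785865 gene counts, of which 573903 to 1055433 fell on nuclear genes, and the muscle libraries held 24309444 to 32055355, of which 15579407 to 22116750 were nuclear. The 37 genes of the mitochondrial genome took 12.9% to 51.5% of counts in mitochondrial libraries and 26.4% to 35.9% in muscle. Over the 6 muscle libraries, a gene with no count has a level below 0.0259 CPM (3 counts over the group), a floor that covers counting error only. The 10 skeletal muscle markers were all detected in both groups, with a summed level of 2304 to 4751 CPM in mitochondria and 234738 to 297078 CPM in whole muscle. Counts were not divided by transcript length, so the CPM values of different receptors are given as descriptions and show no order of transcript number. In bulk RNA, fewer cells of a type and less RNA per cell cannot be told apart.

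Among the type 1 vomeronasal receptors, the summed level was 1192 CPM in the lowest and 1324 CPM in the highest mitochondrial library, with a mean of 1277 ± 51.3 CPM, against 0.0842 ± 0.0906 CPM in whole muscle (SD, n = 6 each). The mitochondrial counts by replicate were 760, 1391, 922, 1134, 1106 and 1059, and the muscle counts were 1, 2, 1, 0, 5 and 1. The lowest mitochondrial library lay far above the highest muscle library, at 0.258 CPM. The ratio of the pooled levels was 14826 (exact counting interval 8056 to 30932). It rests on 10 muscle counts, and without replicate 5 of whole muscle it was 24704. All exact intervals given here pool reads over animals, so they cover counting error only and not the spread between animals.

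The type 2 vomeronasal receptors summed to 1673 ± 77.4 CPM in mitochondria (range 1592 to 1794) and 0.401 ± 0.284 CPM in whole muscle (range 0.155 to 0.802), a pooled ratio of 4243. Mitochondrial counts by replicate were 924, 1893, 1256, 1479, 1482 and 1355, and muscle counts were 4, 15, 6, 4, 3 and 14. Of the 46 muscle counts of this family, 28 came from Vom2r44, and 18 came from the other members.

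The bitter taste receptors summed to 236 ± 15.3 CPM in mitochondria (range 218 to 253) and 0.365 ± 0.282 CPM in whole muscle (range 0.128 to 0.864), a pooled ratio of 639. Mitochondrial counts by replicate were 139, 266, 170, 189, 219 and 198, and muscle counts were 4, 18, 3, 2, 8 and 8. Tas2r137 gave 21 of the 43 muscle counts, and the other members gave 22. The groups did not overlap in any of the 3 family sums. Nor did they in the summed olfactory receptors, at 13191 CPM or more in mitochondria and 13.7 CPM or less in whole muscle.

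**Figure D1:**
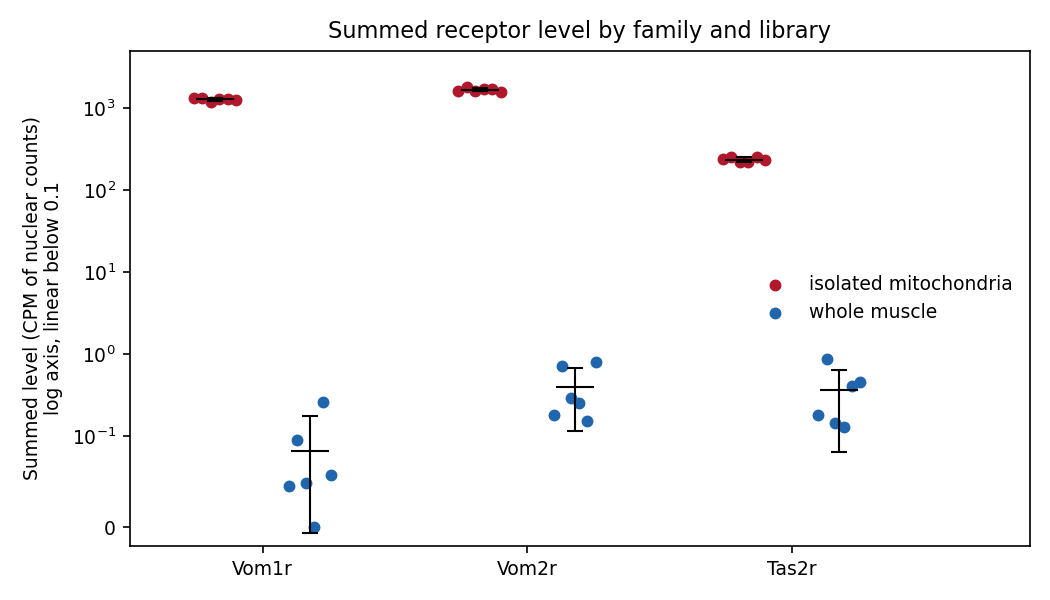
Summed level of each receptor family per library, in CPM of nuclear counts on an axis that is logarithmic above 0.1 and linear below it. Points are libraries, isolated mitochondria in red and whole muscle in blue, and the horizontal line and bars give the mean and SD over 6 libraries. The mitochondrial Vom1r sums sit between 1192 and 1324 CPM, above every muscle sum.

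The makeup of the receptor counts was nearly the same in each mitochondrial library. The Vom2r sum was 1.31 ± 0.0567 times the Vom1r sum within a library (SD, n = 6, range 1.22 to 1.36). The Vom1r sum was 5.42 ± 0.322 times the Tas2r sum, and all receptors together stood at 0.230 ± 0.00507 of the olfactory receptor sum. The coefficient of variation of the family sums between animals was 4.02% for Vom1r, 4.63% for Vom2r and 6.46% for Tas2r. Counting error alone gives 3.12%, 2.72% and 7.25% for the same families in that order. The mitochondrial genome's share of the same libraries ran from 12.9% to 51.5%.

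Nearly every receptor gene was detected in mitochondria. A mitochondrial library held counts for 74.2 ± 0.753 of 77 Vom1r rows, for 66 of 68 Vom2r rows in each library, and for 30.3 ± 0.816 of 31 Tas2r rows. A muscle library held counts for 1.5 ± 1.38 Vom1r rows, 2.67 ± 1.37 Vom2r rows and 3 ± 1.41 Tas2r rows (SD, n = 6). In all, 166 of the 176 rows had a count in all 6 mitochondrial libraries, and 25 had a count in any muscle library. When each library was thinned to 573903 nuclear counts, a mitochondrial library still held 73.5 Vom1r, 66.0 Vom2r and 29.2 Tas2r rows on average, whereas the 6 muscle libraries together kept 4 receptor counts. Only Vom1r35, Vom2r69 and Vom2r71 had no count in any of the 12 libraries.

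The detection of otherwise silent genes was not limited to these receptors. Of the 10014 nuclear genes with no count in any muscle library, 64.6% had a count in all 6 mitochondrial libraries, with a median level of 5.56 CPM in mitochondria. The median receptor level in mitochondria was 13.4 CPM for Vom1r (range 0 to 61.0), 20.4 CPM for Vom2r (0 to 108) and 6.53 CPM for Tas2r (1.82 to 40.1).

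**Figure D2:**
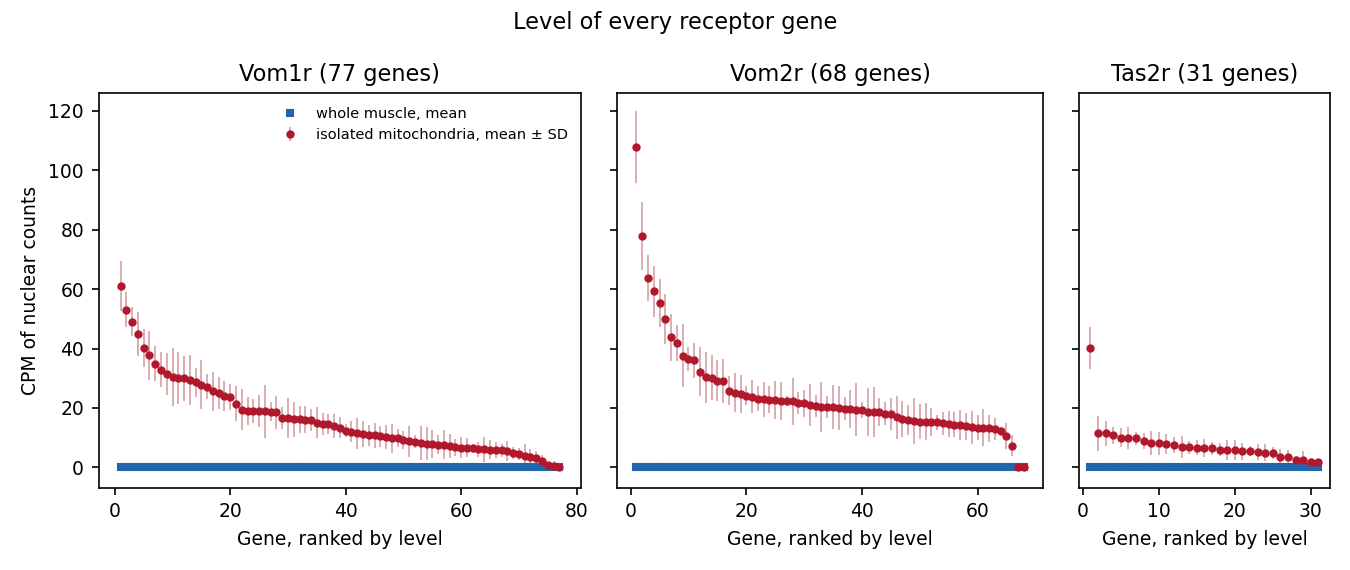
Level of every receptor gene in CPM of nuclear counts, ranked within its family, with isolated mitochondria in red (mean and SD over 6 libraries) and whole muscle in blue (mean). Mitochondrial values fall smoothly over rank with a few high members, such as Vom2r3 at 108 CPM and Tas2r140 at 40.1 CPM, while the muscle means lie on the baseline. Levels are not divided by length, so the ranking is not one of transcript number.

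All receptors that could be tested were higher in isolated mitochondria. With edgeR's quasi-likelihood test and Benjamini-Hochberg adjustment over 24679 genes, 68 of 68 tested Vom1r rows, 66 of 66 tested Vom2r rows and 25 of 25 tested Tas2r rows were higher at an adjusted p under 0.05. Over all genes, 63.0% were called higher and 30.3% lower, so that 67.5% of the called genes were higher with TMM scaling, and 90.3% with total counts as the scale. Among nuclear genes with no muscle count, the kind that most receptors are, 100.0% of the 5592 tested were called higher, so the count itself does not set the receptors apart from other genes that muscle lacks. No receptor was lower, at an adjusted or an unadjusted p under 0.05, and DESeq2 gave 159 higher and 0 lower as well. With any 1 muscle library left out the filter on low counts tested 105 receptors, and with nuclear counts thinned to equal totals, without the mitochondrial genome, it tested 40, and every tested receptor was again higher. The 17 rows that were not tested (9 Vom1r, 2 Vom2r and 6 Tas2r) did not reach the filter's level in 6 libraries, as with Vom1r72, which had 33 mitochondrial counts but 1 in replicate 6. A receptor passes this filter through its mitochondrial counts, so the tested rows are those that were high there.

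The median log2 fold change of mitochondria over muscle was 8.24 for Vom1r (6.53 to 10.10), 8.66 for Vom2r (4.45 to 11.12) and 7.01 for Tas2r (2.97 to 8.31), against 2.51 over all tested genes. Of all tested genes, 88.2%, 92.0% and 73.5% lay below the Vom1r, Vom2r and Tas2r median in that order. The differences between these medians were not tested, and their order was not kept when nuclear counts were thinned to equal totals, where the medians were 6.78 for 16 Vom1r, 6.71 for 23 Vom2r and 7.07 for 1 Tas2r row. Scaling by total counts in place of TMM raised the median of all genes by 2.10, to 4.61, and the family medians to 10.15, 10.57 and 8.90. Relative to the median of all genes the families then stood 5.54, 5.97 and 4.29 higher, and 5.73, 6.15 and 4.50 higher with TMM. These fitted values of genes with no muscle count depend on the prior count. With such genes set at the floor of 3 muscle counts over the group, the median ratio of levels was 558 for Vom1r, 810 for Vom2r and 240 for Tas2r. All ratios of levels and all folds with muscle set at the floor use CPM of nuclear counts without TMM scaling. They are larger than the TMM-scaled log2 fold changes imply. A fold with muscle at the floor takes the mitochondrial level as measured, so it is no confidence bound, and it holds on the CPM scale only.

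Grouped by exon structure, Vom1r and Tas2r, with an undivided coding exon, had 93 of 93 tested rows higher with a median log2 fold change of 7.79, and Vom2r, with several exons, had 66 of 66 with a median of 8.66. Since rows passed the filter through their mitochondrial counts, and 100.0% of tested nuclear genes with no muscle count were higher, these counts do not compare the exon structures. Muscle counts were seen for 16 of 108 rows of the undivided families (53 counts) and for 9 of 68 Vom2r rows (46 counts). The difference between these medians was not tested, and the Vom1r and Tas2r medians lie on either side of the pooled one.

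Other chemosensory families were in the same range. Of 1117 olfactory receptor rows, 951 were tested and 950 were higher, with a median log2 fold change of 7.64 and a summed level of 13846 ± 499 CPM in mitochondria and 11.2 ± 1.42 CPM in whole muscle. All 14 tested trace amine receptors (median 7.70) and all 6 formyl peptide receptors (median 7.72) were higher. So were all 21 tested keratin-associated protein genes (median 7.28), which encode hair proteins and are no receptors.

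**Figure D3:**
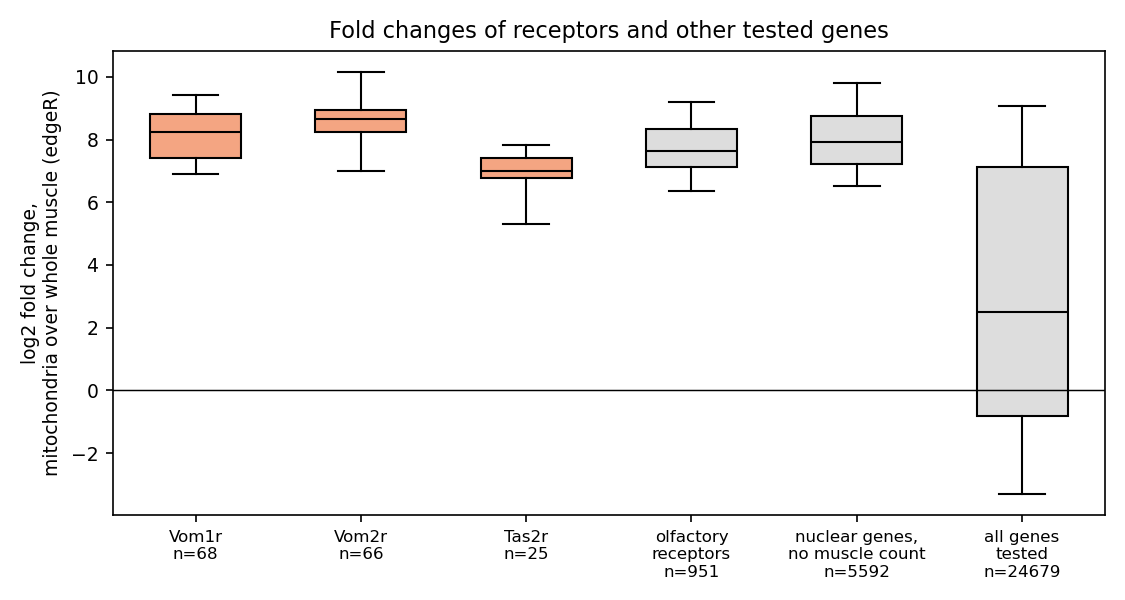
The log2 fold changes (isolated mitochondria over whole muscle, edgeR) of the receptor families in orange beside olfactory receptors, nuclear genes with no muscle count and all tested genes in grey. Boxes give the quartiles and median, and whiskers the 5th and 95th percentiles. The family medians of 8.24, 8.66 and 7.01 lie on both sides of the 7.93 of genes with no muscle count, and above the 2.51 of all genes.

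Among the type 1 receptors, of which 41 names lie on chromosome 1, 28 on chromosome 4 and 3 on chromosome 7 of GRCr8, Vom1r19 (ENSRNOG00000063416) is described first. It had 38 to 75 counts per mitochondrial library (median 47.5) and 61.0 ± 8.33 CPM, and 2 counts over the 6 muscle libraries. The edgeR log2 fold change was 8.92 ± 0.33 (SE, adjusted p = 4.24e-21), and the pooled ratio was 3537 with a counting interval of 971 to 29335 (exact, 95%). Vom1r24 (ENSRNOG00000063294) had 30 to 68 counts per mitochondrial library (median 42) and 53.0 ± 5.85 CPM, with no muscle count. By CPM, with muscle set at the floor of 3 counts, it was 2071-fold higher in mitochondria. The TMM-scaled log2 fold change was 10.10 ± 0.38 (edgeR adjusted p = 1.17e-18). The ranges of counts in the 2 groups did not overlap for either gene. The same holds for the 64.6% of nuclear genes without muscle counts that had a count in all 6 mitochondrial libraries.

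Vom1r32 (ENSRNOG00000067757, 49.0 ± 4.94 CPM in mitochondria) and Vom1r16 (ENSRNOG00000064987, 44.9 ± 7.34 CPM) had 1 muscle count each, and their log2 fold changes were 9.14 ± 0.36 and 9.01 ± 0.37. The pooled ratio was 5654 for Vom1r32 (exact interval 1005 to 224226). Vom1r29 had 6 to 20 counts per mitochondrial library and 2 counts in a single muscle library, with a log2 fold change of 6.81 ± 0.49 (edgeR adjusted p = 5.00e-14). The smallest fold change of the family belonged to Vom1r57, with 2 to 6 counts per mitochondrial library, no muscle count and 6.53 ± 0.68 (edgeR adjusted p = 1.29e-09). By CPM, without TMM scaling, Vom1r57 was at least 171-fold higher in mitochondria.

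Among the type 2 receptors, Vom2r3 (ENSRNOG00000070568) had 65, 128, 67, 91, 100 and 89 counts in the 6 mitochondrial libraries and none in muscle. Its level was 108 ± 12.1 CPM in mitochondria (SD, n = 6), 4188-fold higher by CPM with muscle set at the floor of 3 counts. The TMM-scaled log2 fold change was 11.12 ± 0.31 (edgeR adjusted p = 1.83e-21). Vom2r1, whose promoter above differs from that of Vom2r3 at 3 bases, had 115 counts over the mitochondrial libraries, and Vom2r3 had 540. The share of reads that match both genes was not available.

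Vom2r13 (77.9 ± 11.3 CPM in mitochondria), Vom2r63 (63.8 ± 7.85 CPM) and Vom2r35 (59.2 ± 8.57 CPM) likewise had no muscle count. They were at least 3048-fold, 2466-fold and 2280-fold higher in mitochondria in that order. Their mitochondrial counts did not fall below 33 in any library.

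Vom2r44 (ENSRNOG00000030104) was the exception in the family, as the one receptor of all 176 with counts in all 6 muscle libraries. It had 12 to 28 counts per mitochondrial library (24.6 ± 6.35 CPM) and 2, 10, 2, 4, 3 and 7 counts in the muscle libraries (0.247 ± 0.163 CPM). The log2 fold change was 4.45 ± 0.31 (edgeR adjusted p = 2.65e-14) and the ratio 102, with an exact interval of 67.4 to 160. In the RefSeq gene order of GRCr8 it neighbours Gmps, a purine synthesis enzyme with 5727 muscle counts, and Vom2r45, with none. Gmps itself had 60.2 ± 8.66 CPM in mitochondria and 49.4 ± 7.47 CPM in whole muscle, without TMM scaling. Its TMM-scaled log2 fold change was -1.86 ± 0.12 (edgeR adjusted p = 4.78e-15), so edgeR called it lower in mitochondria. Whether reads of the neighbour reach the Vom2r44 row was not tested.

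The name Vom2r25 occurs on 2 rows. The row ENSRNOG00000047616 had 19.5 ± 6.44 CPM in mitochondria and 4 muscle counts, with a log2 fold change of 6.62 ± 0.44 (edgeR adjusted p = 6.75e-15). The row ENSRNOG00000046431 had 18.6 ± 4.57 CPM and 5 muscle counts, of which 4 were in the same library, with 6.31 ± 0.44 (edgeR adjusted p = 2.02e-14), and 7.72 without replicate 6 of whole muscle. The values of the 2 rows lie within their standard errors of each other, and reads may be divided between such copies. The mitochondrial sums of Vom2r29 were unequal, with 146 counts on the row ENSRNOG00000067320 and 38 on the row ENSRNOG00000038497.

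Among the bitter taste receptors, 29 of which lie on chromosome 4 of GRCr8, Tas2r140 (ENSRNOG00000063462) had 28 to 39 counts per mitochondrial library (median 32), 40.1 CPM on average with a range of 32.3 to 50.5 CPM, and 2 muscle counts, both in replicate 6. The log2 fold change was 8.31 ± 0.39 (edgeR adjusted p = 1.13e-18) with a pooled ratio of 2280 (exact interval 623 to 18961). Tas2r134 (11.4 ± 5.83 CPM in mitochondria) and Tas2r119 (11.4 ± 4.27 CPM) had no muscle count and were at least 449.8-fold and 419-fold higher in mitochondria.

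Tas2r137 (ENSRNOG00000030413) had the smallest change of all receptors tested. It had 7, 5, 4, 9, 6 and 2 counts in the mitochondrial libraries (6.96 ± 3.70 CPM) and 0, 12, 2, 0, 6 and 1 in the muscle libraries (0.173 ± 0.228 CPM). The muscle counts came mostly from replicates 2 and 5, and in raw counts the groups overlap, although not in CPM. The TMM-scaled log2 fold change was 2.97 ± 0.57 (edgeR adjusted p = 1.44e-05), close to the 2.51 median of all genes. The ratio of pooled levels, in CPM without TMM scaling, was 36.6 (exact interval 20.5 to 66.5). Without replicate 2 of whole muscle, which held 12 of the 21 muscle counts, the ratio was 70.0, outside that interval. The interval pools reads over animals and leaves out the spread between them. With any muscle library left out the gene did not pass the filter for the edgeR test. The filter's cutoff follows the median library depth, so it rises when a muscle library is dropped. In gene order Tas2r137 lies between Ssbp1, a mitochondrial single-stranded DNA-binding protein with 2130 muscle counts, and Tas2r108. Ssbp1 had 22.1 ± 7.56 CPM in mitochondria and 18.5 ± 2.31 CPM in whole muscle, without TMM scaling. Its TMM-scaled log2 fold change was -1.86 ± 0.16 (edgeR adjusted p = 1.83e-12), so edgeR called it lower in mitochondria. The part of Ssbp1 in the Tas2r137 counts was not tested.

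Tas2r108 had 2 to 6 counts per mitochondrial library (4.88 ± 1.95 CPM) and 5 muscle counts, with a log2 fold change of 4.34 ± 0.59 (edgeR adjusted p = 4.42e-08) and a ratio of 112, which was 237 without replicate 6 of whole muscle. Tas2r126 had 5 to 14 counts per mitochondrial library (10.8 ± 2.86 CPM) and 6 muscle counts, with 5.30 ± 0.45 (edgeR adjusted p = 2.35e-12) and a ratio of 213 (exact interval 92.0 to 606), which was 349.98 without replicate 2 of whole muscle. Its neighbours in gene order are Tas2r135 and an olfactory receptor, and Tas2r143 follows on from Tas2r135. These 3 adjacent bitter receptors, whose transcripts have been described in rodent heart, had 6, 4 and 3 muscle counts in the order Tas2r126, Tas2r135 and Tas2r143.

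**Figure D4:**
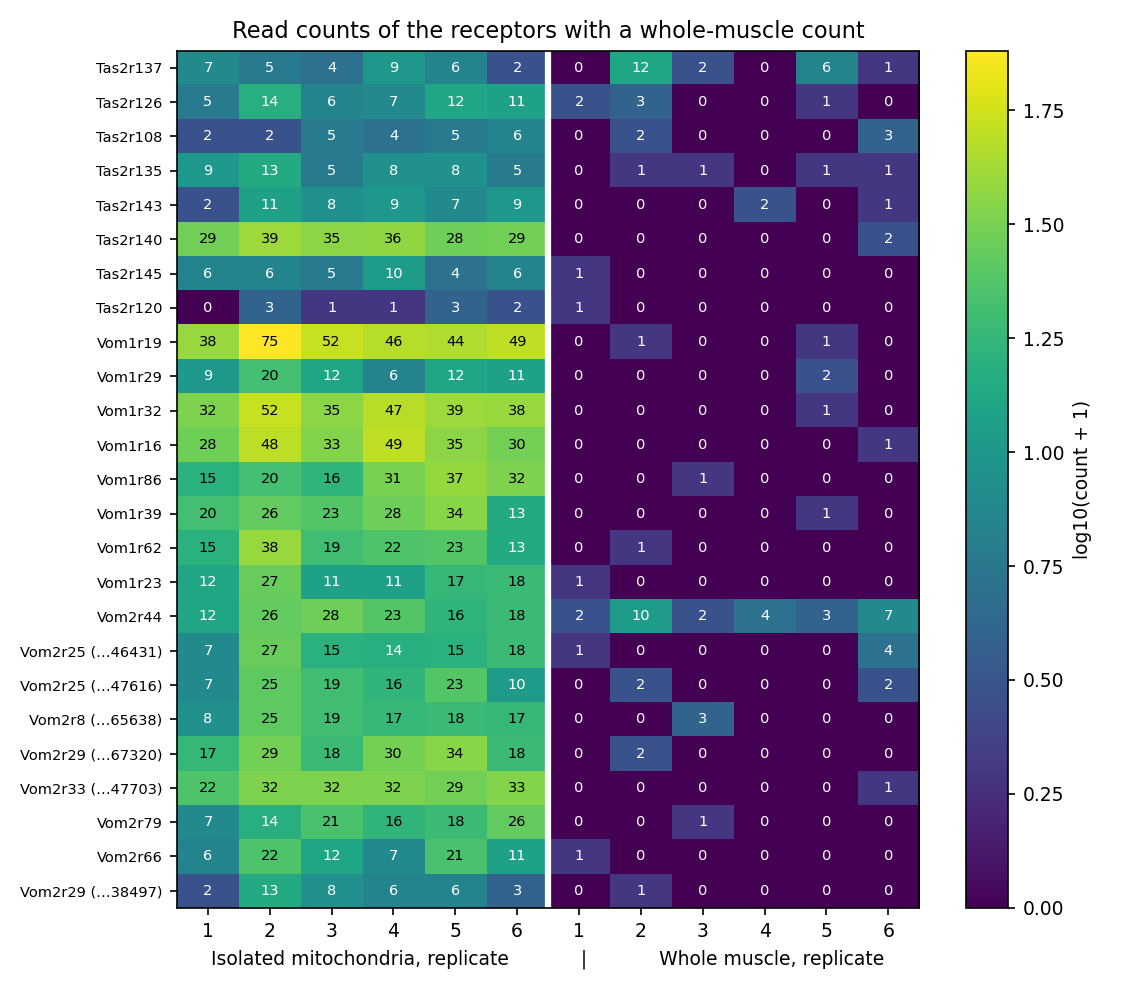
Read counts of the 25 receptor rows with any muscle count, in the 6 isolated mitochondria libraries on the left and the 6 whole muscle libraries on the right, with the count printed in each cell and the colour giving log10(count + 1). Vom2r44 has a count in all 6 muscle libraries, and 16 of the rows have muscle counts in a single library.

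The 99 muscle counts were thinly spread. Of the 25 rows with any muscle count, 12 had 1 count, 4 had 2 and 9 had 3 or more, and 16 had counts in a single library. By name, 22 matched receptors had muscle counts, and 5 of them (22.7%) neighbour a gene with more than 500 muscle counts, against 12 of 140 (8.57%) without muscle counts. Of the 9 names with 3 or more muscle counts, 2 (22.2%) neighbour such a gene. Neighbours with no count matched by name were taken as not above 500, so these shares rest on partly unknown neighbours. This split by neighbour was chosen after the values had been seen and is given as a description. Of the 162 receptor names placed in the RefSeq gene order, 75 have a receptor of these families on both sides, 61 on 1 side and 26 on neither.

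For single receptors at these low counts, the spread between mitochondrial libraries was near that of other nuclear genes. For each gene, the variance of counts about those expected from library depth was divided by the counting variance. Over the 148 receptors with 30 to 600 mitochondrial counts, the median was 1.15, against 1.14 over 22442 other nuclear genes. The median was 1.07 for 62 Vom1r rows, 1.28 for 66 Vom2r rows and 0.971 for 20 Tas2r rows. Counting alone gives a mean of 1 and a lower median, with most values under 1. Of the receptors 40.5% lay under 1, and of the other genes 42.4%, so both spread somewhat more than counting alone. The Tas2r median is not below counting error. The family sums, with more counts, varied more than counting alone for Vom1r (1.62 times the counting variance), Vom2r (3.19) and all receptors (4.14), and not for Tas2r (0.862). Differences between animals in a single receptor below this spread were not detectable at this depth.

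**Figure D5:**
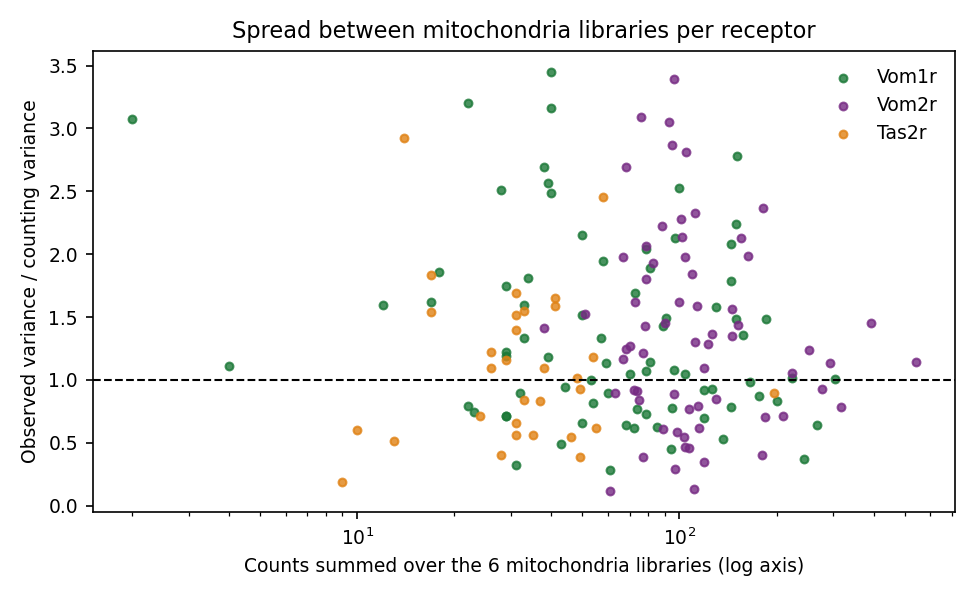
Observed variance of counts about those expected from library depth over the 6 mitochondrial libraries, divided by the variance that counting alone gives. Each receptor is shown against its summed mitochondrial counts on a log axis. The dashed line at 1 marks the mean that counting error alone gives, for which the median is lower. The receptors scatter around the line, with medians of 1.07 for Vom1r, 1.28 for Vom2r and 0.971 for Tas2r among members with 30 to 600 counts.

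Of 31 rows on a list of vomeronasal and taste transduction genes, all tested, 21 were higher and 9 were lower in mitochondria, a split near that of all genes, of which 63.0% were higher and 30.3% lower. The median log2 fold change was 2.76, against 2.51 over all genes. With total counts as the scale the split was 25 higher and 6 lower. Of 19 vomeronasal rows 12 were higher and 7 lower (median 0.80), and of 15 taste rows 11 were higher and 3 lower (median 3.07). Higher genes on the list included the channels Trpc2 and Trpm5 and the G protein subunit gustducin. Trpc2, the channel of vomeronasal neurons, had 95.5 ± 20.8 CPM in mitochondria and 1.70 ± 0.389 CPM in whole muscle (log2 fold change 3.63 ± 0.17, edgeR adjusted p = 1.96e-18). Trpm5, the taste cell channel, had 93.9 ± 6.84 CPM in mitochondria and 0.0957 ± 0.158 CPM in muscle (7.76 ± 0.31, edgeR adjusted p = 2.45e-20). Gustducin (Gnat3) had 22.5 ± 5.09 CPM in mitochondria and 0.0473 ± 0.0802 CPM in muscle.

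Among the G protein subunits the directions differed. Gnai2, the partner of type 1 receptors, fell to 48.6 ± 9.23 CPM in mitochondria, against 163 ± 27.6 CPM in whole muscle (log2 fold change -3.90 ± 0.13, edgeR adjusted p = 3.57e-22). Gnao1, the partner of type 2 receptors, had 70.8 ± 12.3 CPM in mitochondria and 11.2 ± 1.96 CPM in muscle, a log2 fold change of 0.51 ± 0.13 (edgeR adjusted p = 0.000658) on the TMM scale. B2m, which in mouse is known to accompany type 2 receptors and M10 proteins to the cell surface, had a log2 fold change of -4.85. The taste cell channel gene Trpm4 was not called with TMM, at 0.04 (edgeR adjusted p = 0.748), but was higher with total counts (2.19), mitochondrial genome counts (2.68), RLE size factors (0.40) and DESeq2 (0.40). With total counts as the scale Kcnn3, Tas1r1 and Rtp4 turned from -0.55, -0.59 and -1.49 to 1.55, 1.51 and 0.61, so their direction depends on scaling. Gnb1 and Gnb2, at -2.72 and -2.64, were no longer called when the library size was the mitochondrial genome (edgeR adjusted p = 0.827 and 0.688).

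All 10 tested vomeronasal and olfactory neuron markers and all 9 tested taste and tuft cell markers were higher in mitochondria by edgeR, against 63.0% of all genes. Among tested nuclear genes with no muscle count 100.0% were higher, and these markers were low in muscle. The wider signalling list had 21 rows higher and 9 lower, Gnai2 and B2m among the lower. The marker calls therefore do not show whether such cells were present. The 10 vomeronasal and olfactory neuron markers were all detected in mitochondria, and 9 in muscle, where Rtp1 was at 0. Their summed level was 490 to 617 CPM in mitochondria and 11.2 to 24.9 CPM in whole muscle. Of 9 taste and tuft cell markers with a row, all were detected in mitochondria and 7 in muscle, where Calhm3 and Rgs21 were at 0, with sums of 406 to 521 CPM in mitochondria and 9.81 to 11.6 CPM in whole muscle. Several signalling genes stand on these lists too. The part of such cells in the receptor counts was not tested.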

How the data were processed

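The authors deposited a table of raw gene counts, 1 column for each library, with Ensembl identifiers and gene names. Per the submitters' processing notes, the tools were HTSeq, STAR 2.7.11a, cutadapt 4.6 and FastQC 0.74, with the build mRatBN7.2. Not given in the sources used here are strand setting, annotation release and the handling of reads with several matches, so overlapping genes cannot be told apart. Groups came from the sample titles, and all 12 columns matched a sample.

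From the counts, CPM was computed against nuclear gene counts. All genes were tested in R 4.3.3 with edgeR 4.0.16 (glmQLFit and glmQLFTest, TMM, filterByExpr with a minimum count of 10, group only, Benjamini-Hochberg threshold 0.05), and with DESeq2 1.42.0 as an alternative. Standard errors are the log2 fold change over the square root of F. The edgeR script was tested on simulated data. Ratios use CPM of nuclear counts without TMM scaling. Those against few muscle counts have exact 95% counting intervals, which leave out variation between animals. A group with no count was set to 3 counts. Depth was equalised by thinning to 573903 nuclear counts. Summaries used Python 3.11.15, pandas 2.3.3 and SciPy 1.17.1.

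Named per family were the 4 receptors highest in mitochondria, the 3 with the most muscle counts, the largest and smallest fold change, and those with no count. Others were picked after their values were seen. The members and lists were chosen with earlier results of these data known. Replicate numbers pair the groups because both libraries of a number came from the same animal. Deviations from the group means correlated between -0.0103 and 0.0202 within animals, and a library matched its own partner best in 2 of 6 animals. Gene order, promoters and chromosomes came from RefSeq tables of GRCr8, in which 162 of 166 receptor names matched.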

Additional observations from a re-analysis of the deposited data

Results flagged for a closer look

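Of 38 groups of 6 libraries examined, 7 held a library whose gap to the nearest other was large for the group's range (Dixon's ratio), and chance alone gives about 1 in 20. Of these 7, 6 were in whole muscle, where a receptor has 0 counts in most libraries. The ratio was 1 for Tas2r140 and Vom1r16 (replicate 6 of whole muscle) and for Vom1r32 and Vom1r29 (replicate 5), since a single muscle library held all their counts. The summed Vom1r level in muscle had a ratio of 0.628, with replicate 5 highest, and the row ENSRNOG00000046431 of Vom2r25 had 0.803, with replicate 6 highest. In isolated mitochondria, Vom1r24 had a ratio of 0.701, with replicate 2 highest at 64.4 CPM.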

How the results depend on the processing

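No receptor changed direction under any alternative tried. All 340 values of named receptors under other settings kept their direction and side of the threshold, while a receptor left untested by a setting has no value there. The sizes moved more. With thinning, Vom2r3 had a log2 fold change of 8.49. Without replicate 6 of whole muscle Tas2r140 had 9.68, and without replicate 5 Vom1r29 had 8.20. Of 20 alternative settings, 13 tested Tas2r137, where it lay between 2.76 and 5.29, and none of these left out a muscle library. Vom2r44 was tested in 19 and lay between 4.30 and 7.06. The pooled ratios without each muscle library were chosen after seeing the data, and the family ratios then were 12835 to 24704 (Vom1r), 3762 to 5182 (Vom2r) and 565 to 902 (Tas2r). The number of receptors tested did change. With libraries thinned to equal nuclear counts, 40 receptors were tested and all were higher (16 Vom1r, 23 Vom2r and 1 Tas2r). With each library left out in turn, 42 to 72 Vom1r, 61 to 66 Vom2r and 2 to 27 Tas2r rows were higher, and 0 receptors were lower. The lowest values came with any muscle library left out, when the filter on low counts tested 105 receptors, all higher. This number was the same whichever muscle library was dropped, since the filter's cutoff follows the median library depth. With each library left out in turn, the signalling list had 20 to 21 rows higher and 9 lower. With no filter, 76 Vom1r, 66 Vom2r and 31 Tas2r rows were higher. With the animal as a replicate block, 68, 66 and 25 were higher, and the signalling list had 21 higher and 9 lower, so the block changed no call count. With total counts the signalling list had 25 higher and 6 lower, and with mitochondrial genome counts 4 lower. Called genes were higher in 67.5% with TMM, 90.3% with total counts and 94.8% with mitochondrial genome counts. As CPM of all counts, the mitochondrial sums were 853 (Vom1r), 1118 (Vom2r) and 158 (Tas2r). At 3 or more counts, 68.8 Vom1r, 65.8 Vom2r and 24.0 Tas2r rows were detected per mitochondrial library. Thinned Tas2r detection was 29.2. Depth limits the low muscle counts, where 1 read is the smallest level seen.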
